A study of Mus musculus with 3 samples.

Results

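Thymocytes that carried at least 1 UMI (a unique molecular identifier, 1 captured RNA molecule) of Foxp3 were described in 3 single-cell libraries of mouse thymus. A cell entered the set when its barcode held at least 500 genes, under 10% mitochondrial UMIs, 1 or more Foxp3 UMIs and at most 10 UMIs of Cd74, an antigen-presenting cell gene. The set held 82 of 23864 filtered cells. There were 21 in the p53+/- library, 16 in the p53 AD/- library and 45 in the p53-/- library. Each library came from 1 female mouse of 4 weeks, so each genotype had 1 sample. The thymus of the p53+/- mouse stood for wild type in the study's design text, although that mouse carried 1 altered p53 allele. All 3 mice carried germline p53 changes. The letters AD are not spelled out in the labels. The strain was labelled as 50% BALB/C and 50% C57BL6, with C57BL7 and C57BL8 written for the later samples. Genes were compared with 393 Foxp3-negative mature CD4 cells of the same libraries (118, 77 and 198), defined by at least 3 UMIs in sum of Ccr7, Klf2, S1pr1 and Ms4a4b, at least 1 Cd4 UMI and no Cd8a or Cd8b1 UMI.

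Regulatory T cells restrain immune responses to self and arise in the thymus from CD4 cells whose T cell receptor meets self antigen strongly. Such cells first gain the interleukin-2 receptor alpha chain and TNF receptor family members, and interleukin-2 signals through STAT5 then support expression of Foxp3, the transcription factor that defines the lineage. Some regulatory T cells in the thymus have returned there from the periphery. Foxp3 messenger RNA is scarce in droplet libraries, so a single UMI can also come from free RNA or from a droplet with more than 1 cell.

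The Foxp3 UMIs chose the set and are given as a description. In the set, 46 cells held 1 Foxp3 UMI, 15 held 2 and 21 held 3 or more, and the highest cell, in the p53-/- library, held 9. Cells just outside the threshold hold no Foxp3 UMI. The Cd74 limit removed no cell, since the highest Cd74 value in the set was 3 UMIs. Median depth was 6109, 5165 and 5101 UMIs per Foxp3-positive cell in the p53+/-, p53 AD/- and p53-/- libraries, against 6777, 6138 and 5835 in the reference cells and 3238.5, 2484 and 3062 over all filtered cells. The libraries shared 15, 29 and 21 barcodes in pairs, and none of these belonged to a Foxp3-positive cell. One barcode of the p53 AD/- library held 115717 UMIs, 60.4% of all UMIs of the Foxp3-positive cells there. It carried 1 Foxp3 UMI beside 113 UMIs of Cd8a, 182 of Cd8b1 and 40 of Rag1. Results from the p53 AD/- sum are therefore given with and without it.

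The other 5 markers were checked against the label. At least 3 of Ikzf2, Ctla4, Tnfrsf4, Tnfrsf18 and Izumo1r were detected in 55 of the 82 cells (67.1%), against 98 of 393 reference cells (24.9%). None was detected in 7 cells and only 1 in 15. Of the 36 cells with 2 or more Foxp3 UMIs, 33 carried at least 3 other markers. Of the 46 cells with 1 Foxp3 UMI, 22 did. The label of regulatory T cells and precursors therefore rests on these markers for at most 55 cells, and the 7 cells without any other marker are Foxp3-positive by the rule alone. The 55 include the p53 AD/- barcode of 115717 UMIs. They also include deep cells with other programs, such as a p53-/- cell of 14436 UMIs with 9 Rag1 UMIs and 73 UMIs of cycling genes. After thinning each cell to 1500 UMIs, the shares with at least 3 other markers were 29.6% and 4.59%.

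**Figure D1:**
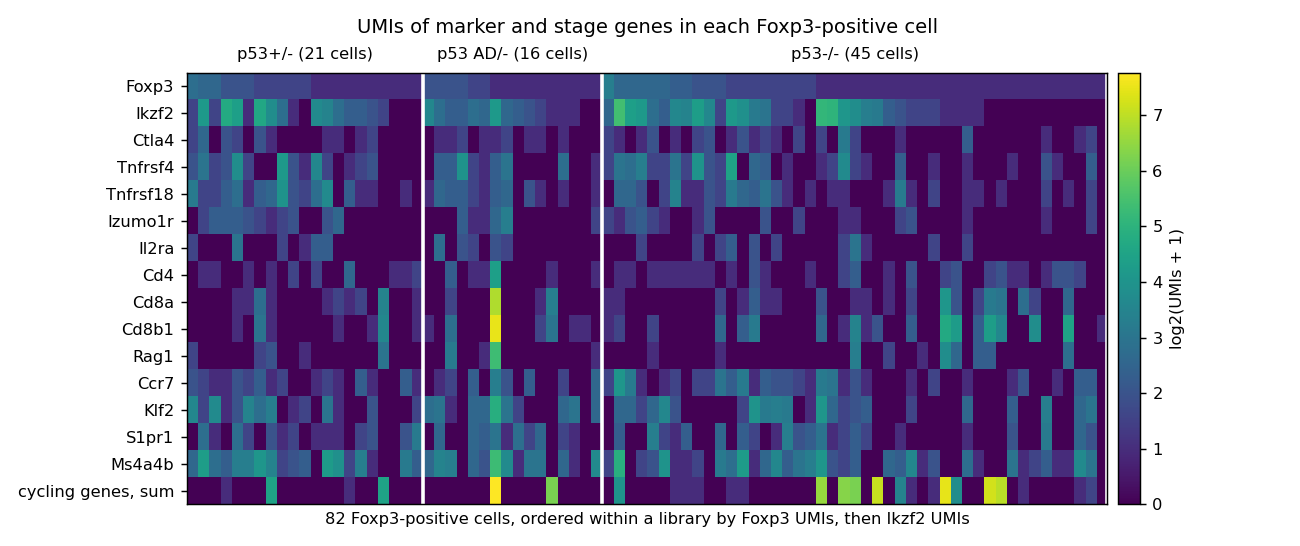
Each column is 1 of the 82 Foxp3-positive cells, grouped by library, and each row is a gene or the sum of 8 cycling genes, with colour giving log2(UMIs + 1). Cells with several Foxp3 UMIs at the left of each library mostly hold Ikzf2 and TNF receptor UMIs, and cells with high Cd8a, Cd8b1 or cycling counts lie mostly among those with 1 Foxp3 UMI.

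The Foxp3-positive cells were a mixed population by stage. Cd8a and Cd8b1 were both at 0 in 40 of 82 cells, and at least 1 Cd4 UMI was found in 42. Rag1, the recombinase gene of immature thymocytes, was detected in 19 cells. The egress genes Ccr7, Klf2, S1pr1 and Ms4a4b reached 3 UMIs in sum in 63 cells, and 17 cells met every condition of the mature CD4 gate. At least 5 UMIs of 8 cycling genes were present in 14 cells, of which 12 had a single Foxp3 UMI. A Cd8a or Cd8b1 UMI was present in 28 of the 46 cells with 1 Foxp3 UMI and in 14 of the 36 with more.

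Across the whole filtered data, Foxp3 detection differed by class. It was found in 17 of 410 mature CD4+CD8- cells (4.15%, exact 95% interval 2.43 to 6.56%) and in 17 of 343 mature cells without Cd4 or Cd8 UMIs (4.96%, 2.91 to 7.82%). It was found in 15 of 831 mature CD4-CD8+ cells (1.81%, 1.01 to 2.96%) and in 10 of 11535 Rag1-positive CD4+CD8+ cells (0.0867%, 0.0416 to 0.159%). The last class should hardly express Foxp3 and its share is the background given here, at a median of 2314.5 to 3011 UMIs per cell. The mature CD4+CD8- cells were deeper, at 5736.5 to 6711 UMIs. The intervals here and below cover counting error only. The classes use Cd4 and Cd8 UMIs, which drop out in shallow cells, so a cell without a Cd4 UMI may still express Cd4.

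**Figure D2:**
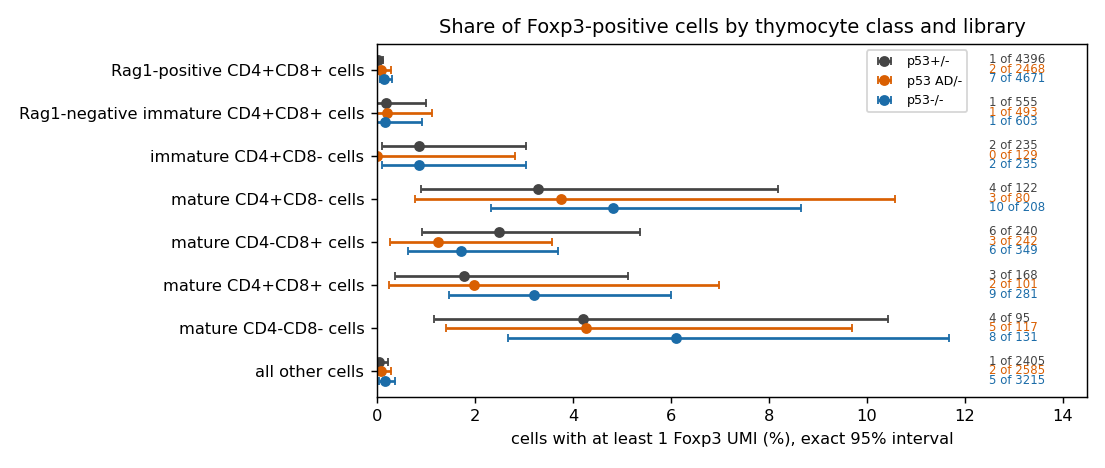
The share of cells with at least 1 Foxp3 UMI (x axis, percent, with exact 95% intervals) is drawn for each thymocyte class and library, and the counts stand at the right. Mature classes lie above the Rag1-positive CD4+CD8+ cells, and the 3 libraries overlap within every mature class.

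The share of Foxp3-positive cells was 0.258% of filtered cells in the p53+/- library (21 of 8150, exact 95% interval 0.160 to 0.394%). It was 0.259% in the p53 AD/- library (16 of 6171, 0.148 to 0.421%) and 0.472% in the p53-/- library (45 of 9543, 0.344 to 0.630%). The p53-/- share was the highest and its interval overlapped those of the other libraries. With 1 mouse per genotype there is no test between genotypes, and an interval holds no difference between mice. With at least 2 Foxp3 UMIs the shares were 0.135%, 0.0972% and 0.199%. Counting only cells with at least 3 other markers gave 0.196%, 0.178% and 0.293%, so the p53-/- library was again highest. The p53 AD/- value there includes the large barcode. Thinning all cells to 1500 UMIs before the rule gave 0.126%, 0.163% and 0.198%. Within mature CD4+CD8- cells the shares were 3.28%, 3.75% and 4.81%, again with overlapping intervals.

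**Figure D3:**
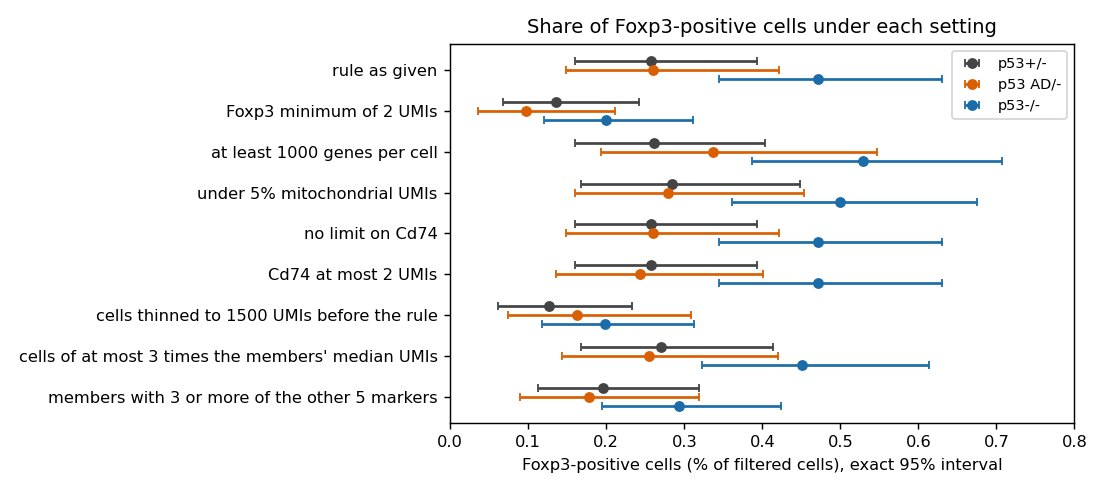
The share of Foxp3-positive cells among filtered cells (x axis, percent) is drawn for each library under each setting, with exact 95% intervals. The p53-/- library is highest in every row, and its interval overlaps that of at least 1 other library in every row.

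The 6 markers begin the gene results. The stretches of 250 bases before the gene starts of Foxp3, of the markers Tnfrsf18, Tnfrsf4 and Ctla4 and of Il2ra are shown because interleukin-2 and STAT5 are known to act on this gene group. They are the RefSeq sequences of GRCm38.p6, 5′ to 3′ on the gene's strand, with capitals for the STAT letters TTCNNNGAA. Of 2 RefSeq starts of Foxp3, the second is shown because its window holds these letters, whereas that of the first does not. The window of Izumo1r holds none and is not printed, and no entry of the table matched Ikzf2.
Foxp3, chrX:7580233-7580482, plus strand: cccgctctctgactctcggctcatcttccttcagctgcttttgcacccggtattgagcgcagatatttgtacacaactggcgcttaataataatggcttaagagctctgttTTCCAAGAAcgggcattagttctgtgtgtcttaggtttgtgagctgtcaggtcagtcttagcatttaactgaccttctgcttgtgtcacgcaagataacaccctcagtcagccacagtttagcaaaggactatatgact
Tnfrsf18, chr4:156026072-156026321, plus strand: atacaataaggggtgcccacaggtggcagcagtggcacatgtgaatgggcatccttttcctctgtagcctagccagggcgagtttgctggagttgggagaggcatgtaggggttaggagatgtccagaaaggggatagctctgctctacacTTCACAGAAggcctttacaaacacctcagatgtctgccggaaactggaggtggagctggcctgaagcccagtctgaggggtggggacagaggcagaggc
Tnfrsf4, chr4:156013445-156013694, plus strand: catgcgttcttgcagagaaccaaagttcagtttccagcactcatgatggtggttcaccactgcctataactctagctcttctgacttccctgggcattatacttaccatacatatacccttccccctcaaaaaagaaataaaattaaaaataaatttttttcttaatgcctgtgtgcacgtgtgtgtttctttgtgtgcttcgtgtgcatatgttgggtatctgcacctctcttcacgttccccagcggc
Ctla4, chr1:60908775-60909024, plus strand: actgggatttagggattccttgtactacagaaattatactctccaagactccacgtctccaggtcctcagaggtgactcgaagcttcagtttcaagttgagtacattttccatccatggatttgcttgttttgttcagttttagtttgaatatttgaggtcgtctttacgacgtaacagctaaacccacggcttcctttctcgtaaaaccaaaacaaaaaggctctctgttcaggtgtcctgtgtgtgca
Il2ra, chr2:11642542-11642791, plus strand: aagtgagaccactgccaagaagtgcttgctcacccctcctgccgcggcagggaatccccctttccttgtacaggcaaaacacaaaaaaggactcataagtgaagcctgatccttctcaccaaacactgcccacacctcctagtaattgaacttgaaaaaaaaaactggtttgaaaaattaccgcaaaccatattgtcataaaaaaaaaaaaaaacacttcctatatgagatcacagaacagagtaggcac
The STAT letters, which read the same on both strands, began 139 bases before the shown Foxp3 start and 99 bases before the Tnfrsf18 start. The same letters occurred in 7.02% of 32851 promoters of this length. The windows of Tnfrsf4, Ctla4 and Il2ra held none. A match is a description of letters and not of binding.

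Ikzf2 (Helios, a zinc finger factor of thymic regulatory T cells) was detected in 78.0% of Foxp3-positive cells and in 27.5% of reference cells. Its level in summed counts was 1107, 366 and 1017 CPM, which is the UMI sum of the gene scaled to the UMI total of the same cells, in the p53+/-, p53 AD/- and p53-/- Foxp3-positive cells. The matched reference cells had 277, 298 and 232 CPM. Without the barcode of 115717 UMIs the p53 AD/- value was 700 CPM, so the Foxp3-positive cells were higher in all 3 libraries either way. The log2 fold change was 1.52 ± 0.26 (SE, 3 libraries; edgeR adjusted p = 0.00137), and 1.79 without that barcode. The change was no longer called when the p53+/- library was left out (edgeR adjusted p = 0.161) or the p53-/- library (edgeR adjusted p = 0.209).

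Ctla4, the inhibitory receptor that binds CD80 and CD86, was detected in 48.8% of Foxp3-positive and 8.40% of reference cells. Its levels were 152, 57.5 and 137 CPM, against 13.8, 3.68 and 32.5 CPM in the reference. The p53 AD/- value was 132 CPM without the large barcode. Ctla4 rose by a log2 fold change of 2.71 ± 0.35 (edgeR adjusted p = 7.48e-05), and it was called in each of the 17 alternatives that tested it. Its p53+/- and p53 AD/- reference sums lay below the 23.1 CPM cutoff of the filter on low counts. Ctla4 therefore passed that filter through the Foxp3-positive cells, where it was high. The alternatives reuse these cells and are no separate support.

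The receptors Tnfrsf4 (OX40) and Tnfrsf18 (GITR) are TNF receptor family members that costimulate T cells, and their genes lie 9551 bases apart on chromosome 4. Tnfrsf4 had 506, 230 and 376 CPM in Foxp3-positive cells and 144, 195 and 175 CPM in the reference. Tnfrsf18 had 557, 167 and 258 CPM, against 134, 122 and 168 CPM. Without the large barcode the p53 AD/- values were 528 and 370 CPM. Both genes were higher in every library, with the smallest gap for Tnfrsf18 in the p53-/- library when the large barcode is set aside. The log2 fold changes were 1.05 ± 0.24 (edgeR adjusted p = 0.0163) for Tnfrsf4 and 1.05 ± 0.25 (edgeR adjusted p = 0.0281) for Tnfrsf18. Leaving out the p53+/- or the p53-/- library ended both calls, with edgeR adjusted p from 0.146 to 0.348.

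Izumo1r, which encodes folate receptor 4 of T cells, had 239, 115 and 103 CPM in Foxp3-positive cells and 95.2, 88.4 and 130 CPM in the reference. It was above the reference in the p53+/- and p53 AD/- libraries and below it in the p53-/- library. The exact 95% intervals of the log2 ratio spanned 0 in the p53 AD/- (-0.42 to 1.135) and p53-/- (-0.92 to 0.20) libraries. Without the large barcode the p53 AD/- interval lay above 0 (0.45 to 2.17). Its log2 fold change was 0.39 ± 0.28 and did not pass the test (edgeR adjusted p = 0.637). In the 40 cells with Cd8a and Cd8b1 at 0 it was 1.25 (edgeR adjusted p = 0.0112).

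**Figure D4:**
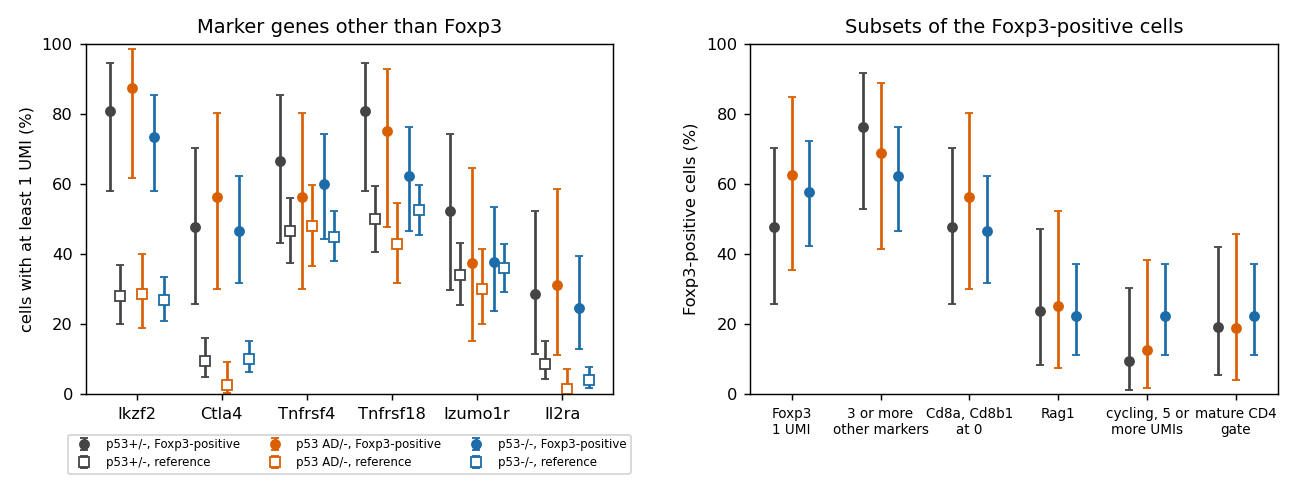
The left panel gives the percent of Foxp3-positive cells (filled circles) and reference cells (open squares) with a UMI of each marker in each library, and the right panel gives subsets of the Foxp3-positive cells, all with exact 95% intervals. The intervals of Ikzf2 and Ctla4 lie above those of the reference in every library, whereas those of Izumo1r overlap the reference in every library.

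Across all genes, 84 of 4968 tested genes (1.69%) were higher in Foxp3-positive cells and 42 (0.845%) were lower, by edgeR's quasi-likelihood test on summed UMIs with the library as a block and Benjamini-Hochberg adjustment over all genes. The 9 genes used to choose either set are left out of these counts. The 3 libraries serve as replicates of the cell-type contrast although they differ in genotype. Without the barcode of 115717 UMIs the counts were 49 (0.979%) and 19 (0.379%), with 45 and 19 of the earlier calls among them and no change of sign. Leaving out the p53-/- library gave 19 higher (0.415%) and 11 lower (0.241%) genes, and leaving out the p53+/- library gave 71 (1.36%) and 25 (0.478%). Leaving out the p53 AD/- library gave 87 (1.38%) and 34 (0.538%). DESeq2 called 48 (0.964%) and 16 (0.321%). Among cells of both sets without any UMI of the 8 cycling genes, 91 (2.81%) and 68 (2.1%) of 3238 genes were called.

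Interleukin-2 receptor chains were among the strongest called rises. Il2ra (CD25), the alpha chain that raises affinity for interleukin-2, had 20, 16 and 29 UMIs in Foxp3-positive cells against 19, 2 and 12 in the far larger reference sums. Those were 145, 83.6 and 90.2 CPM against 20.1, 3.68 and 8.66 CPM. Il2ra rose by 3.26 ± 0.36 (log2; edgeR adjusted p = 7.52e-06) and was found in 22 of 82 cells. Il2rb, the signalling beta chain, had 246, 73.1 and 99.5 CPM against 36.0, 11.1 and 29.6 CPM. It rose by 2.30 ± 0.30 (edgeR adjusted p = 7.48e-05). All 3 libraries were higher for both chains. Il7r, the interleukin-7 receptor alpha chain that is low on regulatory T cells, had 21.7, 36.6 and 52.9 CPM against 244, 204 and 274 CPM, and it fell by 2.63 on the log2 scale (SE 0.28; edgeR adjusted p = 3.95e-06). Of 11 tested genes of the interleukin-2 and STAT5 list, Il2ra, Il2rb and Pim1 rose and Il7r fell, with a list median of 0.34 beside -0.002 over all genes. Over all 4968 genes, 1.69% were called higher and 0.845% lower. The kinase gene Pim1, a STAT5 target, had a log2 fold change of 1.49 (edgeR adjusted p = 0.00137), and it was not called without the p53-/- library or with Cd8a and Cd8b1 at 0 (0.96; edgeR adjusted p = 0.284). The reference sums of Il2ra were all below the filter on low counts, so it was tested only through the Foxp3-positive cells. The p53 AD/- reference sum of Il2rb was below that filter too.

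A list of regulatory T cell genes beyond the markers had 13 tested members, with a median log2 fold change of 0.65. Il2ra rose but was tested only through the Foxp3-positive cells. Of the other 12 members, Il2rb rose and none fell, while 1.69% of 4968 genes were called higher and 0.845% lower. The p53 AD/- reference level of Il2rb, 11.1 CPM, was below the 23.1 CPM of the filter on low counts. Il2rb therefore passed that filter with the help of the Foxp3-positive cells. Gpr83, a G protein-coupled receptor, had 1.72 (edgeR adjusted p = 0.0727) and Ikzf4 (Eos, a partner of Foxp3) had 1.11 (edgeR adjusted p = 0.0814), both short of the threshold. In the 36 cells with 2 or more Foxp3 UMIs, 14 members of the list were tested. The reference sums of Il2ra, Lrrc32 and Nrp1 were all below the filter there (30.3 CPM), so that these genes were tested only through the Foxp3-positive cells. Of the other 11, 6 rose and none fell, while 2.4% of 4326 genes were called higher and 1.48% lower. The 6 were Il2rb, Ikzf4, Gpr83, Capg, Gata3 and Rgs1. Only genes with every reference sum below the filter were set apart. Il2rb had 11.1 CPM (p53 AD/-) and 29.6 CPM (p53-/-) in the reference, both below it. It thus passed with the help of the Foxp3-positive cells, and the count of 6 is no support. Lrrc32 (GARP), which holds latent TGF-beta at the cell surface, reached 4.87 ± 0.55 (edgeR adjusted p = 3.92e-10). Nrp1 (neuropilin-1), a marker of thymus-derived regulatory T cells in mice, reached 3.84 ± 0.52 (edgeR adjusted p = 2.73e-08). Both were too sparse to be tested in the whole set. In the cells with Cd8a and Cd8b1 at 0, a subset chosen after seeing the data, 6 of 12 rose, with 1.75% of 4124 genes called higher and 1.58% lower. Genes tested only through the Foxp3-positive cells were not set apart in this count.

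The leading rises also held Arpp21, Rag1 and Dntt, genes of CD4+CD8+ thymocytes. Arpp21 rose by 3.68 ± 0.35 (edgeR adjusted p = 1.09e-06), with 36.2, 251 and 187 CPM in Foxp3-positive cells and 5.29, 7.37 and 18.1 CPM in the reference. Rag1 rose by 3.61 ± 0.33 (edgeR adjusted p = 6.58e-07), with 108, 261 and 143 CPM against 8.47, 9.21 and 17.3 CPM. Dntt, the terminal transferase of receptor gene assembly, rose by 2.75 ± 0.36 (edgeR adjusted p = 7.48e-05), and its p53 AD/- level fell from 418 to 39.6 CPM when the large barcode was left out. Ctsl (cathepsin L), Ly6d, Colq and Mns1 rose by 2.97, 3.35, 2.42 and 2.21 (log2), of which Colq and Mns1 were not called without the p53-/- library (edgeR adjusted p = 0.102 and 0.154). Colq was below the filter on low counts in every reference sum, so it was tested only through the Foxp3-positive cells. Most reference sums of Ly6d (5, 1 and 36 UMIs), Mns1 (14, 17 and 18) and Dntt (19, 10 and 60) were also below that filter. These genes therefore passed it through the Foxp3-positive cells as well. Of the CD4+CD8+ list, Rag1, Arpp21, Dntt, Aqp11 and Rmnd5a were tested and called. The reference sums of Rag1, Arpp21 and Aqp11 were all below the 23.1 CPM of the filter on low counts, so these 3 genes were tested only through their level in Foxp3-positive cells and their count is no support. Without the large barcode Aqp11 was no longer tested and Rmnd5a was not called. The reference required mature cells without Cd8 UMIs, so this direction is in part set by the choice of the reference. The summed level of the 10 listed genes, Cd8a and Cd8b1 included, was 745, 3113 and 1461 CPM in Foxp3-positive cells, 845 CPM for p53 AD/- without the large barcode, and 73.7 to 175 CPM in the reference. Among cells with Cd8a and Cd8b1 at 0, Ctsl had 0.06 (edgeR adjusted p = 0.983), and Rag1, Arpp21 and Dntt were too sparse to be tested.

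Mbnl3, Dusp4 and Tbc1d4 were further called rises. Mbnl3, a muscleblind-like RNA-binding protein gene, had 86.8, 88.8 and 49.8 CPM against 7.41, 14.7 and 10.8 CPM in the reference. It rose by 2.65 ± 0.40 (edgeR adjusted p = 0.00039), and by 2.92 in cells with Cd8a and Cd8b1 at 0 (edgeR adjusted p = 0.000502). Dusp4, a phosphatase of MAP kinases, had 72.4, 41.8 and 68.4 CPM against 7.41, 20.3 and 12.3 CPM and rose by 2.24 ± 0.43 (edgeR adjusted p = 0.00393). Leaving out the p53+/- or the p53-/- library ended the call for Dusp4 (edgeR adjusted p = 0.098 and 0.246). In every library the reference sums of Mbnl3 and Dusp4 were below the 23.1 CPM of the filter on low counts. Both genes were therefore tested only through the Foxp3-positive cells. Tbc1d4, a Rab GTPase-activating protein gene, rose by 1.44 ± 0.28 (edgeR adjusted p = 0.0043), from 127, 22.1 and 42.6 CPM in the reference to 275, 31.3 and 180 CPM. Without the p53-/- library it had 0.93 (edgeR adjusted p = 0.552), and without the p53+/- library 1.71 (edgeR adjusted p = 0.0781).

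**Figure D5:**
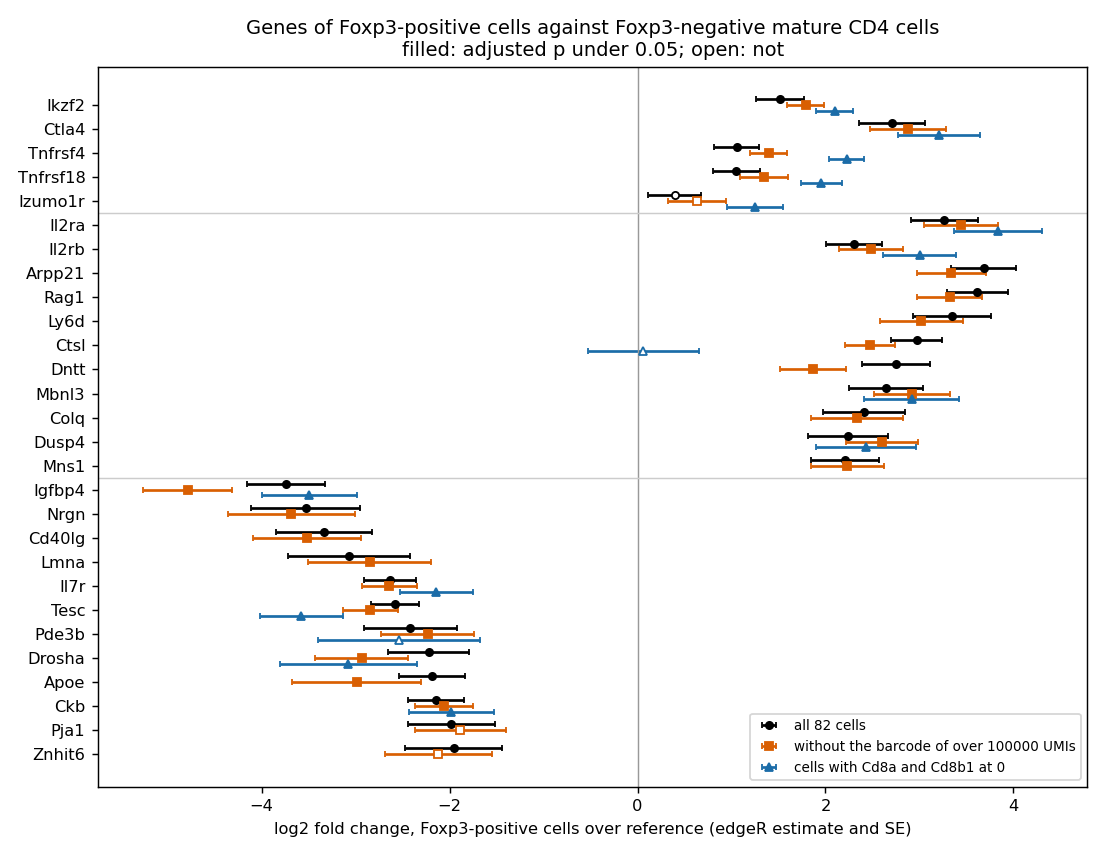
Log2 fold changes of the named genes over the reference are drawn with SE for all 82 cells, for the set without the barcode of 115717 UMIs, and for cells with Cd8a and Cd8b1 at 0, with filled symbols at adjusted p under 0.05; genes too sparse for a setting, or with no UMI in its Foxp3-positive cells, have no symbol. Marker, Il2ra and Il2rb values are larger in cells without Cd8 UMIs, whereas Ctsl is near 0 there.

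The genes called lower included Igfbp4, Tesc and Cd40lg. Igfbp4, an insulin-like growth factor binding protein gene of naive CD4 cells, had 0, 11 and 1 UMIs in Foxp3-positive cells and 169, 180 and 271 in the reference. It fell by 3.74 on the log2 scale (SE 0.41; edgeR adjusted p = 8.55e-06). Tesc, a calcium-binding protein gene, had 36.2, 52.2 and 52.9 CPM against 297, 271 and 290 CPM and fell by 2.58 (edgeR adjusted p = 1.57e-06). Both genes were lower in every library. Cd40lg, the ligand by which helper T cells activate B cells, had 1, 1 and 2 UMIs against 43, 29 and 107 and fell by 3.34 (edgeR adjusted p = 0.000551). It was no longer called without the p53-/- library (edgeR adjusted p = 0.0801). Nrgn, a calmodulin-binding protein gene, had 0, 1 and 2 UMIs against 36, 43 and 63 and fell by 3.53 (edgeR adjusted p = 0.000972).

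Lef1, a transcription factor of conventional T cell identity, had 304, 261 and 249 CPM against 529, 569 and 637 CPM and fell by 1.14 (log2; edgeR adjusted p = 0.000904). Without the p53-/- library its call was lost (edgeR adjusted p = 0.109). Itm2a, a membrane protein gene induced during positive selection, fell by 1.57 (edgeR adjusted p = 0.0001), from 362, 486 and 449 CPM to 174, 162 and 121 CPM. Of 16 tested conventional T cell factors, Lef1 and Pde3b fell and Myb rose, at a median of -0.03. Beside this list and the next, 1.69% of all 4968 genes were called higher and 0.845% lower. Of 13 tested genes of naive maturation and egress, Il7r, Cd52, Ms4a6b, Igfbp4 and Slfn2 fell and Gimap3 rose, with a list median of -0.51. Without the large barcode the fallen genes of that list were Il7r, Cd52 and Igfbp4, and the median was -0.25. The list had no single direction in the subsets. With 2 or more Foxp3 UMIs, H2-K1, H2-D1 and Gimap3 were among its genes that rose and 3 of its genes fell, of 13 tested. In that subset 2.4% of 4326 genes were called higher and 1.48% lower. With Cd8a and Cd8b1 at 0, H2-K1, H2-D1 and Gimap3 were again among those that rose and Il7r and Igfbp4 fell, at a median of 0.11. There 1.75% of 4124 genes were called higher and 1.58% lower. The remaining falls among the 12 leading genes were Lmna (lamin A/C), Pde3b, Drosha, Apoe, Ckb, Pja1 and Znhit6, at -3.07 to -1.96 on the log2 scale. The calls of Lmna, Pde3b, Drosha, Pja1 and Znhit6 were lost without the p53+/- library (edgeR adjusted p from 0.0734 to 0.14), and those of Lmna, Pde3b, Drosha and Znhit6 also without the p53-/- library. Apoe had 556 of its reference UMIs in the p53 AD/- library, where the reference cells also held 1403 UMIs of 8 macrophage and granulocyte genes (2584 CPM); without that library Apoe had -0.87 (edgeR adjusted p = 0.66). The part of macrophage RNA in this value was not tested.

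Of 20 tested genes of the TNF receptor and NF-kappaB axis, Tnfrsf4 and Tnfrsf18 rose and none fell in the whole set, at a median of 0.21. For every whole-set list of this paragraph, the share over all 4968 genes was 1.69% called higher and 0.845% called lower. With 2 or more Foxp3 UMIs, Traf1, Rel and Nfkbia also rose of 16 tested (median 0.54), where Traf1 was tested only through the Foxp3-positive cells. In that subset 2.4% of 4326 genes were called higher and 1.48% lower. With Cd8a and Cd8b1 at 0, 7 of 17 rose (median 0.76), Cd27 and Bcl2a1b among them, while 1.75% of 4124 genes were called higher. That subset was chosen after seeing the data. Genes tested there only through the Foxp3-positive cells were not set apart. Neither Tnfrsf4 nor Tnfrsf18 was called without the p53+/- or without the p53-/- library. Of 16 tested genes of T cell receptor signal strength, none rose and Itm2a fell in the whole set. With 2 or more Foxp3 UMIs, Cd69, Cd200 and Slamf6 rose of 16 tested, beside 2.4% of 4326 genes called higher. In the whole set no tested gene was called among 9 apoptosis regulators, 9 p53 targets and 13 genes of fatty acid oxidation, at a median of 0.30, 0.37 and 0.20. At an unadjusted p under 0.05, 627 of all tested genes passed. Among effector and recirculating regulatory T cell genes, Lgals1 and Anxa2 rose and S100a11 fell of 11 tested, and none was called without the large barcode. Eno1 was the 1 called gene of 12 in glycolysis (lower) and mt-Co1 the 1 called gene of 13 encoded by mitochondria (higher); neither was called without the large barcode or when any 1 library was left out. Beside these, Ighm of the B cell list and Trdc of the gamma-delta list were called higher, at 2.40 and 1.86. Trdc had 6, 19 and 37 UMIs in Foxp3-positive cells, of which 2 of the 19 were left without the large barcode, and it was then not called (1.40; edgeR adjusted p = 0.238). Nor was it called without the p53 AD/- library (edgeR adjusted p = 0.0512) or the p53-/- library (edgeR adjusted p = 0.645). The B cell genes Ms4a1 and Ebf1 were at 0 in the Foxp3-positive cells of every library, and the B cell list summed to 94.1, 225 (92.4 without the large barcode) and 177 CPM there against 46.6, 27.6 and 142 CPM in the reference.

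The 17 Foxp3-positive cells that met the whole mature CD4 gate (4, 3 and 10 cells) gave a comparison of sets that passed the same gate. There 21 of 3912 genes (0.537%) were higher and 29 (0.741%) lower. Ikzf2 rose by 1.87 (edgeR adjusted p = 2.7e-08), Ctla4 by 2.45 (edgeR adjusted p = 0.00254), Tnfrsf4 by 1.82 (edgeR adjusted p = 9.9e-06) and Tnfrsf18 by 1.37 (edgeR adjusted p = 0.0233). Gpr83 rose by 2.72 (edgeR adjusted p = 0.000489) on 7, 2 and 4 UMIs against 10, 22 and 24. Ikzf4 rose by 2.04 (edgeR adjusted p = 0.0457) on 2, 2 and 10 UMIs against 43, 11 and 43. All reference sums of Ctla4 were below the filter on low counts of this comparison, as were most of those of Gpr83 and Ikzf4. These 3 genes therefore passed the filter through the few Foxp3-positive cells. None of the 10 tested genes of the interleukin-2 and STAT5 list rose here. Il2rb had 1.95 (edgeR adjusted p = 0.0941), Pim1 had -0.49 (edgeR adjusted p = 0.958), and Il2ra was too sparse to be tested. Zfp36l1, which encodes a protein that promotes decay of AU-rich messenger RNAs, rose by 1.29 (edgeR adjusted p = 0.00861). Of the fallen genes, Igfbp4, Tesc, Itm2a, Lef1 and Il7r were also called in the whole set. The gate calls lower also included Top2a (0, 0 and 3 UMIs against 311, 150 and 494) and Mki67 (0, 0 and 1 UMI against 125, 60 and 226), genes of dividing cells. The gate therefore did not match the sets for cell division. Of the calls of the whole set, 11 higher and 7 lower genes were called in the same direction here, and 21 had an estimate of the opposite sign. The count of higher genes here was 5 without the p53+/- library, 13 without the p53 AD/- library and 3 without the p53-/- library, and that of lower genes was 13, 21 and 14.

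Between genotypes, levels within the Foxp3-positive cells are values of 1 library each. Foxp3 itself had 326 CPM in the p53+/- library, 136 CPM in the p53 AD/- library (330 CPM without the large barcode) and 289 CPM in the p53-/- library. Every cell was chosen by its Foxp3 UMIs, so these levels are a description and are not compared. The log2 ratio of p53-/- over p53+/- was -0.12 for Ikzf2 (exact 95% interval -0.40 to 0.16), -0.15 for Ctla4 (-0.93 to 0.67) and -0.43 for Tnfrsf4 (-0.87 to 0.02), all spanning 0. These values depended on which cells were summed. With at least 2 Foxp3 UMIs, Ikzf2 had 0.39 (0.05 to 0.74), Ctla4 0.09 (-0.89 to 1.11) and Tnfrsf4 0.35 (-0.16 to 0.88). In the mature gate, with 4 p53+/- and 10 p53-/- cells, Ikzf2 had 1.0 (0.28 to 1.79), Tnfrsf4 1.23 (0.32 to 2.27) and Ctla4 -0.75 (-2.73 to 1.30). There 1 p53+/- cell held 17 of the 20 Ikzf2 UMIs, and 2 p53-/- cells held 15 and 21 of the 57 Tnfrsf4 UMIs. The intervals treat UMIs as independent and hold no spread between cells. In all Foxp3-positive cells the ratio of p53-/- over p53+/- was -1.11 for Tnfrsf18 (-1.58 to -0.64) and -1.22 for Izumo1r (-1.96 to -0.48). The reference cells showed 0.32 and 0.45 for these 2 genes in the same pair. Among cells with at least 2 Foxp3 UMIs the ratios were -0.20 and -0.62, and in the mature gate 0.89 and -1.60, with intervals that spanned 0. For p53 AD/- over p53+/- without the large barcode, Ikzf2 had -0.66 (-1.14 to -0.20), and the intervals of Ctla4, Tnfrsf4, Tnfrsf18 and Izumo1r spanned 0. An interval without 0 was common over all genes with enough UMIs. Between p53 AD/- and p53+/- it was found on the higher side for 27.4% and on the lower side for 17.5% of 709 genes. Between p53-/- and p53+/- these were 17.1% and 10.7% of 1078 genes, and between p53 AD/- and p53-/- 16.2% and 15.1% of 1237 genes.

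Cycling genes gave the largest ratios of p53-/- over p53+/- Foxp3-positive cells. Top2a, the topoisomerase of dividing cells, had 101 CPM in the p53+/- cells, 402 CPM in the p53 AD/- cells (304 without the large barcode) and 902 CPM in the p53-/- cells. The log2 ratio of p53-/- over p53+/- was 3.15 (2.38 to 4.04) for Top2a, 3.55 (2.39 to 5.01) for Mki67 and 3.83 (3.01 to 4.79) for the linker histone gene Hist1h1b. In the reference cells the same ratios were 0.12, 0.30 and -0.80. Top2a was detected in 2 of 21 p53+/- cells and in 14 of 45 p53-/- cells. At least 5 cycling UMIs were found in 2, 2 and 10 cells of the 3 libraries, and 9 of the 10 p53-/- cells had a single Foxp3 UMI. Among cells with at least 2 Foxp3 UMIs these genes did not share a direction. Top2a had 12 UMIs in the p53-/- library and 0 in the p53+/- library, whereas Mki67 had 4 against 6, Hist1h1b 2 against 3, Nusap1 1 against 2 and Ube2c 0 against 4. The part of droplets with more than 1 cell in these values was not tested.

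Other genes differed between the libraries. The lowest ratios of p53-/- over p53+/- included Cd69, an early activation and retention receptor, at -1.87 (-2.61 to -1.16) and Bcl2, the anti-apoptotic gene, at -1.38 (-1.91 to -0.85). The reference cells had 0.40 and 0.11 for these genes. With at least 2 Foxp3 UMIs Cd69 had -1.77 (-2.74 to -0.88) and Bcl2 -0.57 (-1.32 to 0.18), and in the mature gate they had 1.44 (-0.75 to 4.66) and -0.53 (-2.40 to 1.47). Lars2, a mitochondrial leucyl-tRNA synthetase gene, was also low, at -1.34, and the reference cells had -1.30, so for this gene the difference was present in both populations. For p53 AD/- over p53+/-, Zfp36l1 was lowest at -2.30 (-3.05 to -1.60), and at -2.25 (-3.43 to -1.25) without the large barcode. The reference cells had -0.59. Against p53-/-, the p53 AD/- cells were lowest in Tsix and in Rel, an NF-kappaB subunit required for Foxp3 induction in mice, which had -2.55 (-3.92 to -1.43), or -1.70 (-3.37 to -0.41) without the large barcode. The Rel value in the reference was -0.79. The histone gene Hist1h2ap was highest in p53 AD/- over p53-/-, with 2.43 (2.23 to 2.62) without the large barcode and 2.97 in the reference cells.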

How the data were processed

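Droplet single-cell RNA libraries of thymus from 3 mice were read as UMI counts per gene and barcode, 32285 genes by 25077 barcodes, deposited by the authors as made with Cell Ranger 4.0.0 on GRCm38, per the submitters' processing notes. Filtered cells had at least 500 genes and under 10% mitochondrial UMIs. No doublet caller was run. UMIs were summed per library and set and tested with edgeR 4.0.16 in R 4.3.3 (TMM, filterByExpr, quasi-likelihood, library as block, Benjamini-Hochberg adjustment over all genes, threshold 0.05). The 3 libraries stand as replicates of the cell-type contrast, and each genotype had 1 library, so no test was made between genotypes. Shares have exact Clopper-Pearson 95% intervals and ratios between libraries exact conditional binomial intervals, which cover counting error only. Library totals were 46498800, 27638820 and 54164425 UMIs.

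The members and gene lists were chosen with earlier results of these data known. Named genes were the 6 markers, the 12 highest and 12 lowest called genes with at least 60 UMIs and 1 sign in every library, the 4 members of each list with most UMIs, and the 5 highest and 5 lowest between each pair of libraries; Pim1, Gpr83, Ikzf4, Lrrc32, Nrp1 and the gate genes were chosen after their values were seen. On simulated counts for the whole set, 79.3% of genes changed 4-fold and 20.4% of genes changed 2-fold were recovered among 4977 genes, with 2 false calls; for the mature gate these were 41.1% and 3.64% among 3919 genes. The simulation gave every gene the same fixed dispersion and changed only genes with at least 60 UMIs. It drew sums and not cells, so these rates need not hold for real sums of few cells. Alternatives were another Foxp3 minimum, cell filters, Cd74 limits, thinning, DESeq2 1.42.0, no filter, no library block, cycling cells left out and each library left out. Promoters came from RefSeq for GRCm38.p6. Some genes that these rules name are not reported here.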

Additional observations from a re-analysis of the deposited data

Results flagged for a closer look

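In each of these genes the log2 ratio of Foxp3-positive over reference cells had an exact 95% interval above 0 in 1 library and below 0 in another. With 1 mouse per genotype the difference was not tested. Only the named genes were screened. Genes of dividing cells were the most frequent among them, and the lowest value lay in the p53+/- library for each. These genes had been named for their high ratios over p53+/- between libraries. Their number and their low p53+/- values therefore follow from that choice and are no separate result. Top2a had 1.34 in the p53-/- and -1.70 in the p53+/- library, Mki67 had 1.64 and -1.61, Ube2c 1.56 and -2.57 and Nusap1 2.01 and -1.54. Among histone genes, Hist1h2ae had 1.23 and -2.63 in the same pair, H2afx 1.28 and -1.94 and Hist1h1b 1.84 and -2.79. Hist1h2ap had 1.81 in the p53 AD/- library, or 1.23 there without the barcode of over 100000 UMIs, and -1.71 in the p53+/- library.

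Ccl5, a chemokine gene, had 2.37 in the p53-/- and -1.35 in the p53+/- library. Cd69 had 1.99 in the p53+/- and -1.51 in the p53 AD/- library, where it had -0.50 without the large barcode. The class I histocompatibility gene H2-D1 had 0.56 in the p53+/- and -0.50 in the p53 AD/- library, and H2-K1 had 0.81 and -0.45. Without the large barcode both p53 AD/- values turned, to 0.44 and 0.46. Tox, a nuclear factor of T cell development, had 0.72 in the p53 AD/- library (0.58 without the large barcode) and -0.53 in the p53-/- library. Gapdh had 0.96 in the p53 AD/- library (0.51 without it) and -0.60 in the p53+/- library. mt-Co3 had 0.48 in the p53 AD/- library (0.25 without it) and -0.07 in the p53-/- library, and mt-Atp6 had 0.25 in the p53+/- and -0.12 in the p53-/- library.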

How the results depend on the processing

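Counts of calls moved with several choices (higher and lower genes, against 84 and 42). They were 49 and 19 with Cd74 at most 2, which drops the same large barcode as leaving it out (49 and 19), 48 and 16 by DESeq2, 38 and 14 with no replicate block (the library not in the fit), 12 and 5 on thinned members and 7 and 6 after thinning before the rule. Lower genes alone moved to 64 with 2 Foxp3 UMIs, 138 with no filter on low counts (where the median of all genes was -0.264), 103 without cycling members, 68 without cycling genes in both sets and 65 with Cd8a and Cd8b1 at 0. The setting without cycling members kept the cycling cells of the reference, so it forced cycling genes down. Leaving out each library gave 19 to 87 higher and 11 to 34 lower genes. In the mature gate lower genes were 19 with 2 Foxp3 UMIs and 13 by DESeq2, no filter gave 9 and 70, thinned members 5 and 3, and 10 higher genes were left without cycling members; leaving out each library gave 3 to 13 and 13 to 21. Thinning before the rule gave no value for the gate.

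Shares for p53+/-, p53 AD/- and p53-/- were 0.135%, 0.0972% and 0.199% with 2 Foxp3 UMIs. After thinning they were 0.126% for p53+/- and 0.198% for p53-/-, and with 3 other markers 0.293% for p53-/-. Thinned members had 3 markers in 29.6%, Cd8 at 0 in 66.7%, Il2ra in 16.0% and the gate in 6.17%.

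Signs turned for Izumo1r without the p53+/- library (-0.098; 0.85 at most with 1 library left out), for Anxa2 with Cd8 at 0 (-0.014), for Top2a with 2 Foxp3 UMIs (-2.77), without the p53-/- library (-0.42; 0.96 at most with 1 library left out), without cycling members (-10.43), without cells above 3 times the median UMIs (-0.072) and with Cd8 at 0 (-3.79), and for Mki67 (-1.77, -0.070, -9.20 and -3.29 in the same settings except the cells above 3 times the median; 1.33 at most with 1 library left out). The setting without cycling members dropped every Foxp3-positive cell with a Top2a or Mki67 UMI and kept all reference cells. The values of -10.43 and -9.20 were therefore fixed by that setting. Foxp3 chose the cells, so its ratios between libraries are a description of that choice. Between libraries, p53 AD/- over p53+/- turned for Foxp3 (0.30 with 2 Foxp3 UMIs, 0.020 without the large barcode), Tnfrsf4 (0.46, 0.060) and, in the gate, Ikzf2 (0.33), Tnfrsf18 (0.20) and Izumo1r (0.027). For p53-/- over p53+/-, Tnfrsf18 turned in the gate (0.89), Ikzf2 turned with 2 Foxp3 UMIs (0.39) and in the gate (1.0), Tnfrsf4 turned in the same settings (0.35, 1.23) and Ctla4 with 2 Foxp3 UMIs (0.09). As means of CPM over cells, Ikzf2 (0.24) and Ctla4 (0.35) turned too. Of these, Ikzf2 in both and Tnfrsf4 in the gate had intervals above 0, which hold no spread between cells. For p53 AD/- over p53-/-, Foxp3 turned without the large barcode (0.19), as did Tnfrsf4 (0.49; 0.19 by mean CPM, 0.11 with 2 Foxp3 UMIs) and Tnfrsf18 (0.52; 0.093 and 0.022). The causes were not tested. Settings on the large barcode, Cd8 at 0, cycling genes in both sets, 3 other markers and cells above 3 times the median for the share were chosen after seeing the data. Of 812 alternative values for 49 named genes, 625 had the same direction and side of the threshold, 136 lost the call, 40 gained it and 11 changed sign. The 2 sign changes without cycling members were fixed by that setting. No genotype contrast could be tested with 1 library each.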

Other observations

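Among cells with a UMI of any of 35 Trbv genes, 5 Trbv genes that were listed here as linked to endogenous superantigens (Trbv12-1, Trbv12-2, Trbv15, Trbv16 and Trbv26) were found in 6 of 40 Foxp3-positive cells (15.0%, exact 95% interval 5.71 to 29.8%). They were found in 23 of 183 reference cells (12.6%, 8.14 to 18.3%) and in 1613 of 5509 Rag1-positive CD4+CD8+ cells (29.3%, 28.1 to 30.5%). The intervals of the Foxp3-positive and the reference cells overlapped.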
